A study of Mus musculus with 4 samples.

Results

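The insulin-like growth factor (IGF) genes described here are the ligands Igf1 and Igf2, the receptors Igf1r and Igf2r and the binding proteins Igfbp2, Igfbp3, Igfbp4, Igfbp5, Igfbp6 and Igfbp7. They are 10 of 18193 genes with an annotated probe set on the array. They were chosen by symbol and are represented by 28 of 34945 probe sets that carry a single gene symbol. For each gene the probe set with the highest mean signal over the 4 arrays was taken as the main one, and all others are given beside it. The family was chosen with results for these samples known, so its tests are not independent evidence of a response.

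RNA came from C2C12 cells, an established mouse myoblast line, taken 48 h after the change from 10% fetal bovine serum to 2% horse serum that starts myogenic differentiation, in medium with 25 mM glucose throughout. All cells were differentiating, the vehicle cells included, and no undifferentiated group was measured here. The groups were vehicle (2 arrays), tranylcypromine (TC, an amine oxidase inhibitor; 1 array) and S2101 (1 array), both labelled as inhibitors of LSD1, the histone demethylase encoded by Kdm1a. The labels give no dose and name no separate cultures. The p-values therefore reflect spread between arrays, not between named cultures, and that spread may be technical. Where both inhibitor arrays are tested together, it includes the difference between TC and S2101. It is also drawn in part from the spread of other genes. The cells carried the transcripts of their label. The myogenic factor Myog gave signals of 12999 and 12821 with vehicle, 13386 with TC and 11963 with S2101, while Adipoq, Alb, Ptprc and Pecam1, which mark fat, liver, blood and endothelial cells, never exceeded a signal of 36.9. Values are MAS5 signals on a linear scale with a 2% trimmed mean of 500.0 on each array. Only 4 arrays were measured, which limits the precision of every value.

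IGF1 and IGF2 are small secreted proteins that act through the tyrosine kinase receptor IGF1R, which signals through insulin receptor substrates to PI3K, Akt and mTOR. In skeletal muscle they are made by the muscle cells themselves, promote myoblast proliferation and differentiation, and increase fibre size. IGF2R binds IGF2 and carries it to lysosomes, and the secreted binding proteins hold IGFs away from the receptor or present them to it.

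The 4 genes of the family that passed the test are shown first by the sequence just upstream of a transcription start site. Each line holds the 250 bases before a RefSeq start site (GRCm38.p6), 5′ to 3′ on the gene's own strand. Capitals mark matches to the motifs searched, which are named after the sequences. The windows are chr10:87860861-87861110 (plus strand) for Igf1, chr1:72824230-72824479 (plus) for Igfbp2, chr11:99040994-99041243 (plus) for Igfbp4 and chr1:72874866-72875115 (minus) for Igfbp5.
Igf1: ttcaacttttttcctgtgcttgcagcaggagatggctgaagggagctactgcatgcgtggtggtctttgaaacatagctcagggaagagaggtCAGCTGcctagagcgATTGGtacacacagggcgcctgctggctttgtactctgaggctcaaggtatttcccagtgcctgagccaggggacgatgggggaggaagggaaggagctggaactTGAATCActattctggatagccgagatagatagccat
Igfbp2: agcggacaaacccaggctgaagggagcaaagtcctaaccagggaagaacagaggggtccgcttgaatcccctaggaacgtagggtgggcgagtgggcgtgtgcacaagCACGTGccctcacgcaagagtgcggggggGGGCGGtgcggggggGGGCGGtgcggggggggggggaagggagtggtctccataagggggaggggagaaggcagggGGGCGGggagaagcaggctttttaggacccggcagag
Igfbp4: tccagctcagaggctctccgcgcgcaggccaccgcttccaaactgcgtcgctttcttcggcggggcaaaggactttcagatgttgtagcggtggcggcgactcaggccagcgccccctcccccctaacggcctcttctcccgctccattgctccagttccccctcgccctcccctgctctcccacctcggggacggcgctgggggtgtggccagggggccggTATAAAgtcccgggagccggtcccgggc
Igfbp5: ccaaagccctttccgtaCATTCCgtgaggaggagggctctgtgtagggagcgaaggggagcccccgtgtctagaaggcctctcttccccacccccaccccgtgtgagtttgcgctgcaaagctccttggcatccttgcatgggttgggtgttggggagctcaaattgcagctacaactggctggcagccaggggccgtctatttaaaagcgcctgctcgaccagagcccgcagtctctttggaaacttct
The Igfbp2 and Igfbp5 windows shown end at the annotated start of their genes. Those of Igf1 and Igfbp4 end 2846 and 1239 bases inside the annotated gene, so other start sites exist that are not shown. Igfbp2 has a further RefSeq window, also not shown, that ends 907 bases inside the gene. Which start site the measured transcripts used was not measured.

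The motifs searched, on both strands, were TATAAA (bound by TBP), CAGCTG (an E-box bound by myogenic factors), CACGTG (another E-box), CCAAT (bound by NF-Y), GGGCGG (bound by Sp1), TGANTCA (AP-1), GGAATG (TEAD) and TGTTTAC (forkhead). No motif's matches overlapped another's in the windows shown. The Igf1 window held CAGCTG at -157, the reverse of CCAAT at -142 and TGAATCA at -37, counted in bases before the start site. Among 32851 RefSeq windows of the same length, CAGCTG was present in 13.0%, CCAAT in 33.8% and TGANTCA in 6.75%. The Igfbp4 window held TATAAA at -28, a motif found in 12.4% of windows. The Igfbp5 window held the reverse of GGAATG at -233 (12.6% of windows). The Igfbp2 window shown held CACGTG at -142 (6.02%) and GGGCGG at -113, -98 and -37 (32.7%). The further Igfbp2 window, not shown, held TGAGTCA, a match to TGANTCA, at -39. TGTTTAC (3.17% of windows) was in none of the 14 windows of the 10 genes. The Igf1 window was 52.8% G and C with 5 CpG, close to the median window (52.4% and 6), and the Igfbp4 window was 69.2% with 22 CpG. A match describes the letters in a window and does not show that a factor binds there.

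The ligand Igf1 was lower with both inhibitors, the binding proteins Igfbp4 and Igfbp5 were higher and Igfbp2 was lower. The largest differences were those of Igf1, to 0.403 of the vehicle signal, and of Igfbp4, to 2.18 times it, while the other 8 genes differed by less than 2-fold. Of the 10 genes, all bright enough to test, 2 rose, 2 fell and 6 did not pass. Their median log2 difference was 0.05. Among all 9097 genes tested 8.01% passed (limma, Benjamini-Hochberg 0.05; 4.28% higher and 3.74% lower), and their median was 0.01. Differences are on the scale of log2(signal + 50). The offset of 50, 10% of that trimmed mean, makes the change of dim transcripts look smaller than it is. In 7 of the 10 genes both inhibitor arrays lay beyond both vehicle arrays, which was so for 51.1% of all genes tested. In bulk RNA, fewer cells that express a gene and less of its RNA per cell cannot be told apart.

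**Figure D1:**
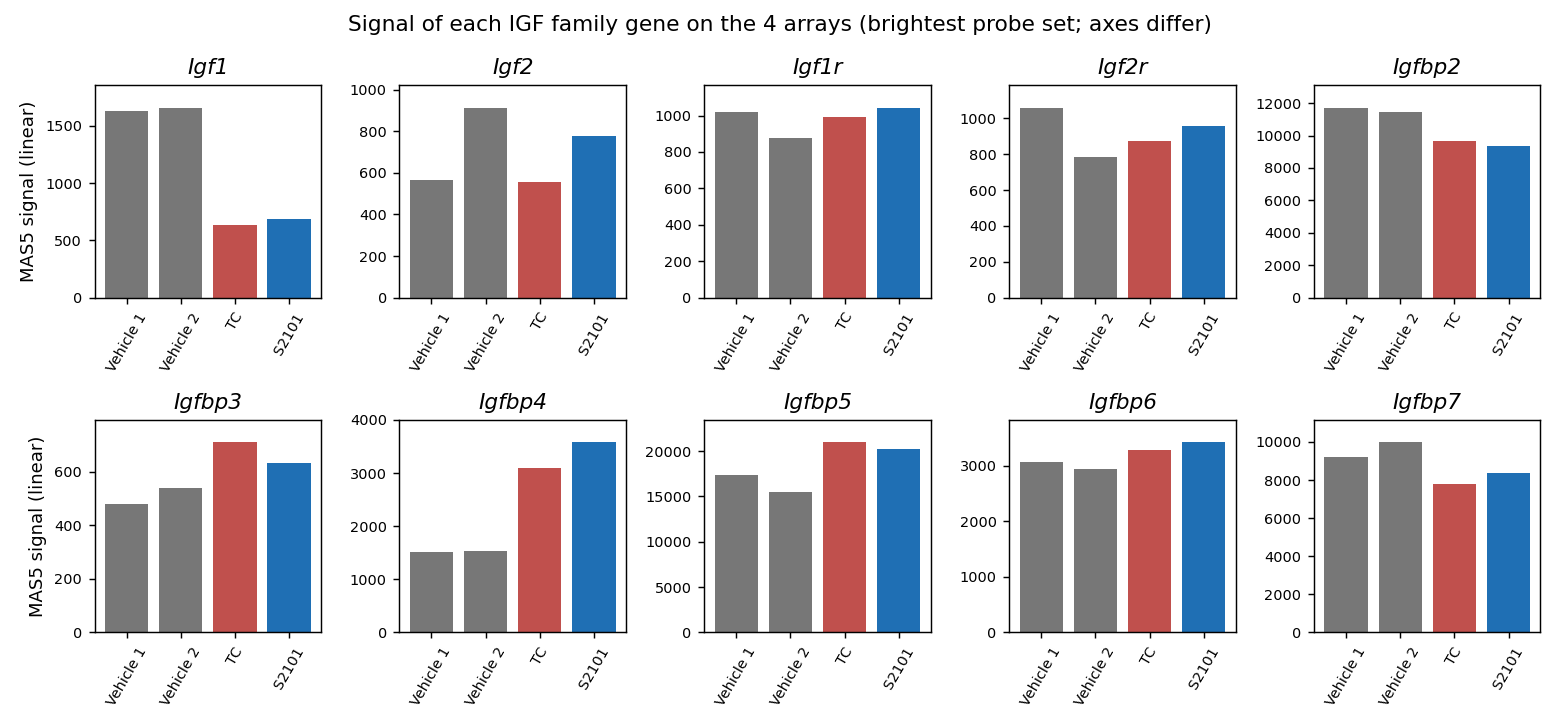
MAS5 signal (linear axis from 0, a different scale for each gene) of the main probe set of each IGF family gene, with 1 bar per array: vehicle 1 and 2 in grey, TC in red and S2101 in blue. Igf1 stands at 1631 and 1659 with vehicle against 635.0 and 691.0 with the inhibitors, Igfbp4 at 1520 and 1539 against 3104 and 3576, and the bars of Igf2, Igf1r and Igf2r overlap between groups.

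Igf1 had signals of 1631 and 1659 on the vehicle arrays, 635.0 with TC and 691.0 with S2101. The vehicle arrays were nearly equal, at 1645 ± 20.3 (SD, n = 2), and both inhibitor arrays lay far below them. The log2 difference was -1.25 ± 0.09 (SE; 95% interval -1.46 to -1.05; adjusted p = 6.73e-05, limma). Its 3 other probe sets showed the same order. Probe set 1434413_at had 1563 and 1531 with vehicle, 507.6 with TC and 611.4 with S2101, the largest log2 difference of the 4 (-1.39). Probe set 1452014_a_at had 487.1 and 658.0 against 281.4 and 193.5, and 1419519_at had 448.6 and 428.2 against 188.6 and 195.5. The inhibitor arrays were below both vehicle arrays in all 4 probe sets, with log2 differences from -1.39 to -1.01. These probe sets read the same RNA and are not replicates. Under 12 other ways of processing the data, leaving out each array among them, the Igf1 difference stayed between -1.31 and -1.05. With all 4 arrays it passed each time (highest adjusted p = 0.00492, limma). Changes of the filter or the trend alter only the test and leave the difference as it is. Without 1 array a group holds 1 array and the spread comes from the other pair and other genes, so a pass there is weak support.

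Igf2, the other ligand, is active in differentiating myoblasts. Its main probe set had 565.8 and 912.8 with vehicle, 554.2 with TC and 775.2 with S2101. The vehicle arrays differed from each other by 0.64 on the log2 scale, more than either inhibitor array differed from their mean, and the groups overlapped. Its log2 difference was -0.13 ± 0.20 (SE), with a 95% interval of -0.57 to 0.32 that holds changes of either direction (adjusted p = 0.776, limma). The other Igf2 probe set, 1415931_at, stood between 4.8 and 12.4 on every array and gives no usable level. The Igf2 value therefore rests on 1 probe set.

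The 3 genes with a profile nearest to that of Igf1, by distance of centred log2 values over the 4 arrays, were the cyclin gene Ccne2 (distance 0.05), the kinetochore gene Spc24 (0.07) and the cyclooxygenase gene Ptgs2 (0.09). Ccne2 had 575.6 and 573.3 with vehicle, 202.7 with TC and 214.1 with S2101. Likeness over 4 arrays is a description of these samples.

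The receptors showed no difference that passed. Igf1r, the receptor through which both ligands signal, had 1017 and 878.2 with vehicle, 994.5 with TC and 1043 with S2101. The TC value lay between the vehicle arrays and the S2101 value just above them. The log2 difference was 0.10 ± 0.10 (SE; 95% interval -0.12 to 0.33; adjusted p = 0.613, limma). Of its 5 probe sets, 3 had a positive and 2 a negative difference, from -0.09 to 0.23, and the groups overlapped in each. Igf2r, the clearance receptor for IGF2, had 1060 and 786.6 with vehicle, 875.1 with TC and 956.7 with S2101. Both inhibitor values fell between the vehicle arrays. The log2 difference was 0.00 ± 0.13 (SE; 95% interval -0.29 to 0.30; adjusted p = 0.994, limma), and the other probe set, at 618.5 and 585.6 against 659.2 and 651.5, gave 0.11.

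Among the 6 binding proteins 2 rose, 1 fell and 3 did not pass. Igfbp4 encodes a binding protein that mostly restrains IGF action and is released from IGFs by the protease PAPP-A. It had 1520 and 1539 with vehicle, 3104 with TC and 3576 with S2101. The TC array was at 2.03 times and the S2101 array at 2.34 times the vehicle mean of 1530 ± 14.0 (SD, n = 2). The log2 difference was 1.10 ± 0.09 (SE; 95% interval 0.90 to 1.29; adjusted p = 9.63e-05, limma). Its 5 other probe sets were higher on both inhibitor arrays as well, with log2 differences from 0.81 to 1.88. The largest was that of 1437406_x_at, at 566.5 and 338.0 with vehicle, 1498 with TC and 2043 with S2101. The smallest was that of 1423757_x_at, at 470.6 and 416.8 against 847.2 and 785.5. An x or s in such a name marks probes that may also match other transcripts, and what such matches add was not tested. Probe sets 1423756_s_at and 1421992_a_at gave 1.10 and 0.94. The dimmest, 1421991_a_at, went from 12.9 and 12.6 to 95.5 and 105.7, below the median gene (178.8) throughout. Under the same 12 alternatives the Igfbp4 difference stayed between 0.998 and 1.20 and passed each time (highest adjusted p = 0.00840, limma).

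Igfbp5, a binding protein that is strongly expressed in differentiating myoblasts, has the main probe set 1452114_s_at, whose probes may also match other transcripts. It had 17341 and 15500 with vehicle, 20962 with TC and 20195 with S2101. Both inhibitor arrays were above both vehicle arrays, by 1.25 times on average. The log2 difference was 0.33 ± 0.07 (SE; adjusted p = 0.0191, limma), and its other probe set, at 347.7 and 275.7 against 539.8 and 439.9, gave 0.58. The call ended without vehicle replicate 2 (log2 difference 0.25; adjusted p = 0.185, limma) and without the TC array (0.30; 0.0599, limma). It also ended without the filter on dim genes (0.141) and without an intensity trend in the variance (0.119), both with the same difference.

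Igfbp2, a secreted binding protein that can also bind integrins, had 11716 and 11450 with vehicle, 9635 with TC and 9340 with S2101. Both inhibitor arrays were below both vehicle arrays. Their log2 difference from vehicle was -0.29 ± 0.06 (SE; adjusted p = 0.0210, limma) on the only probe set of the gene. The call ended without vehicle replicate 1 (-0.27; 0.150, limma) or vehicle replicate 2 (-0.30; 0.0996, limma), without the filter (0.107) and without the trend (0.119). In the RefSeq annotation Igfbp2 and Igfbp5 are neighbouring protein-coding genes on chromosome 1, and on these arrays their differences had opposite signs. Igfbp4 neighbours Top2a, a gene of dividing cells, on chromosome 11. Top2a fell from 2262 and 2269 with vehicle to 1280 with TC and 1053 with S2101 (log2 difference -0.93 ± 0.10, SE; adjusted p = 4.97e-04, limma), the opposite direction to Igfbp4.

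The other binding proteins did not pass. Igfbp3, the main IGF carrier of the circulation, had 481.6 and 541.7 with vehicle, 710.4 with TC and 632.9 with S2101. The groups did not overlap, and the log2 difference was 0.36 ± 0.12 (SE; 95% interval 0.11 to 0.62; adjusted p = 0.0884, limma). Its other probe set gave 0.31. Igfbp7, which binds IGFs weakly, had 9188 and 9971 with vehicle, 7807 with TC and 8355 with S2101. The inhibitor arrays were again apart from the vehicle arrays, and the log2 difference was -0.24 ± 0.07 (SE; 95% interval -0.40 to -0.08; adjusted p = 0.0664, limma). Its other probe sets, 1423585_at and 1437804_at, both below the median gene, gave -0.26 and -0.10. Averaged over its probe sets the difference was -0.20 (adjusted p = 0.325, limma). Igfbp7 passed when each array was centred on its median (-0.26; 0.0426, limma) and without the S2101 array (-0.29; 0.0439, limma). Igfbp6, which prefers IGF2, had 3069 and 2939 against 3291 and 3419. Its log2 difference was 0.16 ± 0.07 (SE; 95% interval -0.01 to 0.32; adjusted p = 0.244, limma).

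**Figure D2:**
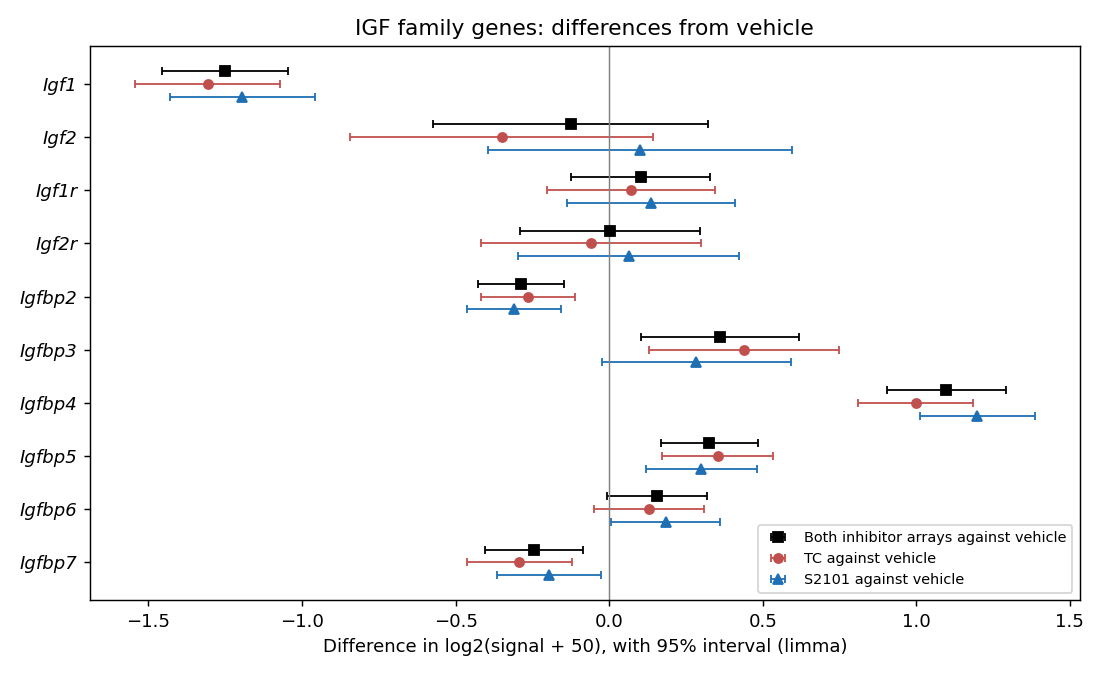
Differences in log2(signal + 50) from the mean of the vehicle arrays (horizontal axis) with 95% intervals from limma, for both inhibitor arrays together (black squares), TC (red circles) and S2101 (blue triangles). Igf1 lies near -1.25 and Igfbp4 near 1.10 for every symbol, and the intervals of Igf2, Igf1r and Igf2r cross 0.

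TC and S2101 were each set against the same 2 vehicle arrays in a fit of 3 groups, where the lone array is assumed to vary like the vehicle arrays. The treated arms give no spread of their own, so these calls rest on the vehicle pair and the spread shared over genes. With TC, 2 genes of the family rose (Igfbp4 and Igfbp5), 3 fell (Igf1, Igfbp2 and Igfbp7) and 5 did not pass, where 8.18% of all genes tested passed, 4.36% higher and 3.81% lower. With S2101, Igfbp4 rose, Igf1 and Igfbp2 fell and 7 did not pass, where 6.71% of all genes passed, 3.37% higher and 3.33% lower. Igf1 stood at -1.31 ± 0.11 (SE; adjusted p = 2.09e-04, limma) with TC and at -1.19 ± 0.11 (3.80e-04, limma) with S2101. Igfbp4 stood at 0.998 ± 0.083 (2.27e-04, limma) with TC and at 1.20 ± 0.08 (9.55e-05, limma) with S2101. Igfbp5 stood at 0.35 (adjusted p = 0.0270, limma) with TC and 0.30 (0.0590, limma) with S2101. The S2101 value passed with quantile normalization (0.00639), median centring (0.0374) and averaged probe sets (0.0219). Igfbp7 stood at -0.29 (0.0456, limma) and -0.20 (0.179, limma). Tested without the filter on dim genes, only Igf1 with TC (adjusted p = 0.0498, limma) and Igfbp4 with S2101 (0.0376, limma) still passed. The 6 other calls ended there, Igf1 with S2101 at 0.0510 and Igfbp4 with TC at 0.0522, and those of Igfbp2, Igfbp5 and Igfbp7 between 0.221 and 0.261. These last 4 calls ended without the intensity trend as well (adjusted p from 0.195 to 0.229, limma), and that of Igfbp7 with averaged probe sets (0.277).

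Set directly against each other, TC and S2101 differed in 0 of the 10 genes by limma after adjustment (0.033% of all genes tested passed) and in 0 at an unadjusted p under 0.05 (8.71% of all genes tested). With 1 array of each compound this count does not show that they act alike, and the intervals leave room for differences. The TC minus S2101 difference was -0.20 for Igfbp4 (95% interval -0.42 to 0.02), -0.11 for Igf1 (-0.39 to 0.16) and -0.45 for Igf2 (-1.02 to 0.12). That of Igfbp5 was 0.05 (-0.15 to 0.26) and that of Igfbp2 was 0.04 (-0.13 to 0.22). With no dose stated, the compounds are not compared here at matched doses.

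**Figure D3:**
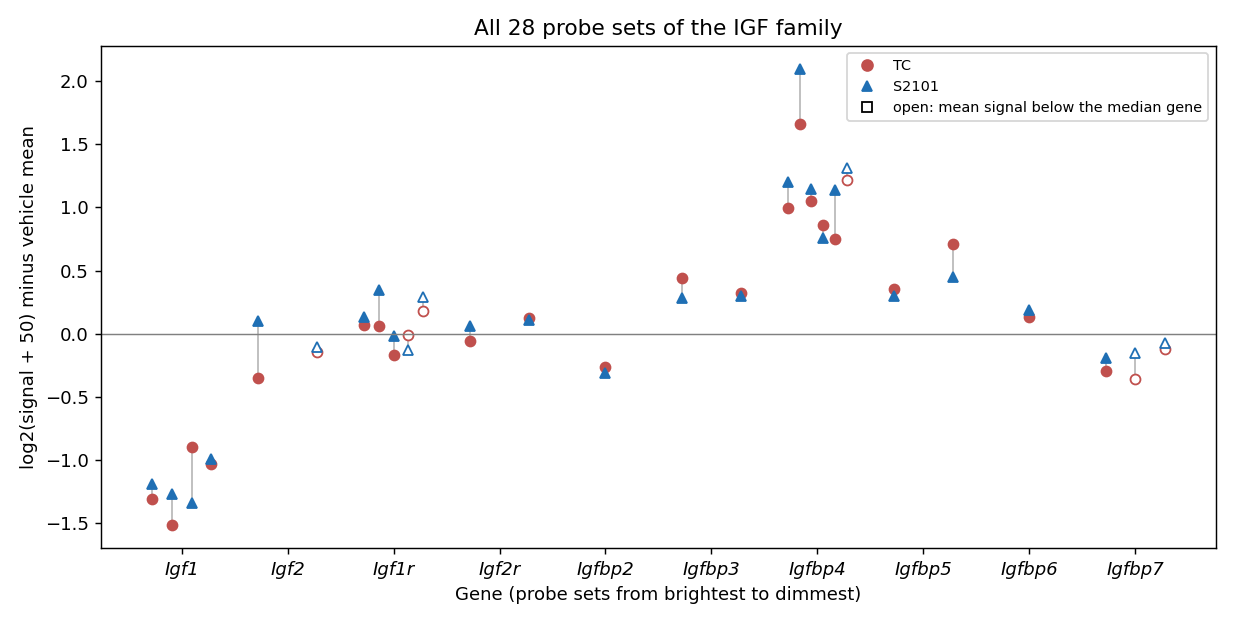
Differences in log2(signal + 50) from the vehicle mean (vertical axis) for all 28 probe sets of the 10 genes, ordered from brightest to dimmest within a gene, with TC as red circles and S2101 as blue triangles. Open symbols mark the 6 probe sets with a mean signal below the median gene; the highest symbol of the 4 probe sets of Igf1 is at -0.90 and the lowest of the 6 of Igfbp4 at 0.75.

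Other genes of IGF signalling mostly did not pass. Of a list of 58 genes in 10 roles, 53 were represented by a probe set of their own and 40 were bright enough to test, of which 4 rose, 2 fell and 34 did not pass, where 4.28% of all genes tested were called higher and 3.74% lower. The median log2 difference of the 40 was 0.07, against 0.01 over all genes. With TC alone 3 of them rose (Foxo3, Ghr and Peg3) and 2 fell (Adam12 and Mest), and with S2101 alone 2 rose (Pik3r1 and Ghr) and 2 fell (Adam12 and Mest). Over all genes tested, 4.36% were called higher and 3.81% lower with TC, and 3.37% higher and 3.33% lower with S2101. The other 5 of the 58 listed genes were not analysed here.

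Outside the cell, Adam12, a metalloprotease of myoblasts that can cleave IGF binding proteins, fell from 756.4 and 659.1 with vehicle to 355.0 with TC and 397.9 with S2101. Both inhibitor arrays were well below both vehicle arrays (log2 difference -0.83 ± 0.12, SE; adjusted p = 0.00271, limma), and a dimmer probe set gave -0.50. Htra1, a secreted serine protease, was at 0.15 ± 0.07 (SE). The other 6 genes of this role were too dim to test: Igfbp1 never exceeded 4.9 and Igfals 38.2, and Pappa, the gene of PAPP-A, had 74.7 and 60.9 with vehicle, 55.0 with TC and 73.2 with S2101.

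At the membrane, Insr, the insulin receptor gene, had 759.2 and 702.7 with vehicle, 948.2 with TC and 985.1 with S2101. It passed, its log2 difference being 0.38 ± 0.10 (SE; adjusted p = 0.0401, limma), but the call ended without any 1 of the 4 arrays (adjusted p from 0.0590 to 0.196, limma), without the filter (0.113) and without the trend (0.0676). Averaged with its 2 dim probe sets the difference was -0.02. Ghr, the growth hormone receptor gene, rose from 6968 and 7375 to 9038 and 9207 (0.35 ± 0.07, SE; 0.0102, limma). This main Ghr probe set, 1417962_s_at, may also match other transcripts. Of its other bright probe sets, 1451501_a_at gave 0.43 and 1451871_a_at gave -0.03. Its call ended without vehicle replicate 1 (0.0967, limma), without the filter (0.0651), without the trend (0.0809) and with averaged probe sets (0.0780). The signal transducers downstream of it, Jak2, Stat5a and Stat5b, stood at -0.02, 0.12 and -0.01.

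Inside the cell, Pik3r1, the main regulatory subunit of PI3K, was the only gene to pass with both inhibitor arrays together among 29 tested adaptors, PI3K and Akt genes, mTOR and FoxO branch genes and negative regulators. It had 1250 and 1142 with vehicle, 1565 with TC and 1771 with S2101, above both vehicle arrays in each case. Its log2 difference was 0.46 ± 0.10 (SE; adjusted p = 0.0149, limma), and 2 other bright probe sets gave 0.35 and 0.25. On the latter, 1425514_at, Pik3r1 had 245.5 with TC, between its vehicle values of 223.1 and 261.0. Its call ended without vehicle replicate 2 (0.0700, limma) or the S2101 array (0.0571, limma), and also without the filter (0.0786), without the trend (0.0575) and with averaged probe sets (0.156). The other 28 did not pass with both inhibitor arrays together, where 8.01% of all genes tested passed. The largest difference in each role was that of the adaptor Shc1 (0.22 ± 0.12, SE), the kinase Mtor (0.24 ± 0.11), the transcription factor Foxo3 (0.28 ± 0.14) and the phosphatase Ptpn1 (0.07 ± 0.08). Foxo3 stood at 0.51 with TC (adjusted p = 0.0389, limma), which passed, and at 0.06 with S2101, and the difference between the compounds did not pass (0.464, limma). The other bright Foxo3 probe set, 1434832_at, had 838.0 and 974.4 with vehicle, 888.7 with TC and 1020.8 with S2101. There the TC value lay between the vehicle arrays. Irs1, the insulin receptor substrate next to the receptor, had 5475 and 5314 with vehicle, 6092 with TC and 6080 with S2101 (0.17 ± 0.07; adjusted p = 0.153, limma). The atrophy ligases Fbxo32 and Trim63, which FoxO factors induce when Akt signalling is low, stood at 0.15 ± 0.11 and 0.14 ± 0.11. These last 3 genes were named after their values were seen.

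Igf2bp3, an RNA-binding protein of Igf2 mRNA, had 277.4 and 182.4 with vehicle, 210.4 with TC and 252.9 with S2101, which overlap (0.03 ± 0.19). Among imprinted genes tied to the H19-Igf2 network, Mest, a paternally expressed gene of the hydrolase fold, fell from 770.1 and 857.6 to 541.9 and 534.4 (log2 difference -0.55 ± 0.11, SE; adjusted p = 0.0101, limma). Peg3, a paternally expressed zinc finger gene, rose from 7471 and 6973 to 8878 and 8755 (0.29 ± 0.07; 0.0278, limma), and its 2 other bright probe sets gave 0.23 and 0.47. On the former, 1417355_at, the TC value of 2554.7 lay between the vehicle values of 2784.8 and 2145.5. The call of Mest ended without vehicle replicate 2 (0.0560, limma) and without the filter (0.0609). That of Peg3 ended without either vehicle array (0.0613 and 0.249, limma) or the TC array (0.0603, limma), without the filter (0.114), without the trend (0.129) and with averaged probe sets (0.282). Cdkn1c, a cell cycle inhibitor of this network, stood at 0.08 ± 0.20.

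**Figure D4:**
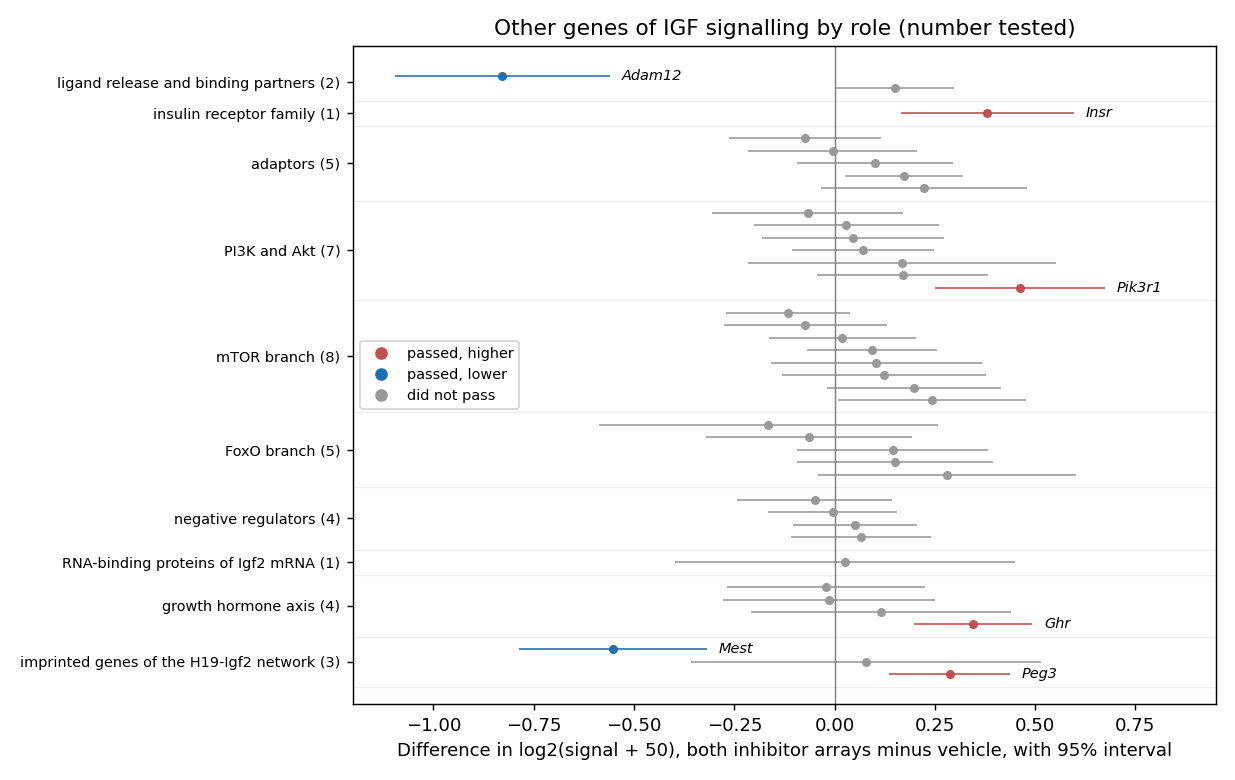
Differences in log2(signal + 50) between both inhibitor arrays and vehicle (horizontal axis) with 95% intervals from limma, for the 40 tested genes of IGF signalling outside the family, grouped by role. Genes past the test are named, higher in red (Insr, Pik3r1, Ghr and Peg3) and lower in blue (Adam12 and Mest); the 34 others are grey.

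Most markers of dividing cells, and some of matrix production, were lower on the same arrays as Igf1, where 3.74% of all genes tested were called lower. Of 8 markers of dividing cells 7 were measured and tested, of which 5 fell and 2 did not pass. Their median log2 difference was -0.88. Their summed signal was 9242 and 9396 with vehicle, 5390 with TC and 4633 with S2101. Of 8 matrix markers, all measured and 7 tested, 3 fell and 4 did not pass, and their summed signal was 77241 and 75755 against 65037 and 65918. Of 12 muscle markers, all measured and 10 tested, 1 rose and 9 did not pass, where 4.28% of all genes tested were called higher. The muscle markers summed to 84032 and 84925 against 90219 and 83526. The part of dividing or matrix-producing cells in the IGF family values was not tested. The 4 measured adipocyte markers summed to 38.0 to 79.4 on each array, the 5 hepatocyte markers to 80.0 to 146.8, and the 4 endothelial markers to 82.7 to 184.3. The 6 leukocyte markers summed to 545.0 to 719.0.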

How the data were processed

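RNA of 4 C2C12 samples was measured on Affymetrix arrays from 250 ng of total RNA, per the labels' protocols. The deposited values are MAS5 signal intensities on a linear scale. The submitters' processing notes name MAS5 and Affymetrix Expression Console; the sources used here give no version, setting or scan batch. Of 45101 probe sets, 34945 carried 1 symbol in the platform annotation. The brightest probe set by mean signal stood for each of 18193 genes, and 9097 of them, with a mean signal of 178.8 (the median gene) or more, entered the test. Log2(signal + 50) was tested in R 4.3.3 with limma 3.58.1, using lmFit and an intensity trend in eBayes, adjusted over all genes tested by Benjamini-Hochberg at 0.05. The inhibitor arrays against vehicle had 2 residual and 8.08 prior degrees of freedom; the fit of 3 groups had 1, from the vehicle pair, and 8.37. Taking TC and S2101 together as LSD1 inhibition was a choice made here. The fits were tested on simulated data with normal noise of the spread that the fit of 3 groups estimated, so less regular noise was not covered. Each added change was the same on both inhibitor arrays, so differences between TC and S2101 were not covered either. Fewer genes were given a change than passed in the data, so the shares below may not carry over to the data. With both inhibitor arrays, 100% of added log2 changes of 1 and 83.2% of those of 0.5 were recovered, and 5.85% of calls were false. For TC and S2101 alone, 70.7% and 69.8% of changes of 0.5 were recovered. There 8.35% and 8.06% of calls were false, above the 0.05 set for the test.

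Members and lists were chosen with earlier results of these data known. Genes named by rule were all 10 members, the IGF signalling genes past the test, the gene with the largest difference in each role, the 3 nearest to Igf1 and cell type markers. Outside these rules, Irs1, Fbxo32, Trim63, Htra1, Igfbp1, Igfals, Pappa, Jak2, Stat5a, Stat5b and Cdkn1c were named from the IGF signalling list. Top2a was named as the neighbour of Igfbp4, also outside them. Alternatives were offsets of 10 and 250, no filter or one at the 75th percentile, no trend, quantile normalization, median centring, averaged probe sets and leaving out each array. The 1 probe set annotated to Igf2r and another gene was left out. Sequences are RefSeq windows of GRCm38.p6, matched by symbol for all 10 genes.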

Additional observations from a re-analysis of the deposited data

How the results depend on the processing

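The number of IGF family genes past the test for both inhibitor arrays against vehicle was 4, and 2 without the filter on dim genes or without the intensity trend; leaving out 1 array gave 2 to 5, the lowest without vehicle replicate 2. For TC it was 5, and 1 without the filter and 2 without the trend. For S2101 it was 3, and 1 without the filter, 2 without the trend and 4 with quantile normalization, median centring or averaged probe sets. Calls over all genes without the filter went from 744 to 12 for TC and from 610 to 8 for S2101. The number of other IGF signalling genes was 6, and 1 without the filter, 3 with the filter at the 75th percentile, 2 without the trend and 2 with averaged probe sets; leaving out 1 array gave 2 to 5, with 3 without vehicle replicate 1 and 2 without vehicle replicate 2. Over all genes the count of calls was 729. It was 266 without the filter, 457 with the stricter filter, 423 without the trend and 478 with averaged probe sets. It was also lower without either vehicle array or the TC array, and higher without the S2101 array. For TC and S2101 alone, the count over all genes fell without the trend. For S2101 it rose with quantile normalization and median centring, but not with averaged probe sets. Shifts in the family's counts are therefore not read as particular to it. Differences that changed sign had not passed in the comparison concerned, apart from that of Insr. For single compounds, some changed sign when a vehicle array was left out. Without vehicle replicate 2, Igf1r with TC went from 0.07 to -0.03 and Igf2r with S2101 from 0.06 to -0.14. Without vehicle replicate 1, Igf2 with S2101 went from 0.10 to -0.22 and Igf2r with TC from -0.06 to 0.145. Igf2 ranged from -0.45 to 0.20 when 1 array was left out, with 0.20 without vehicle replicate 2 and 0.10 without the TC array, and for S2101 alone it stood at -0.0025 with averaged probe sets. Igf2r stood at -0.0011 with quantile normalization, -0.0133 with median centring, from -0.20 (without vehicle replicate 2) to 0.21 when 1 array was left out, with -0.06 without the S2101 array, and for TC at 0.0315 with averaged probe sets. Between TC and S2101, Igf1 stood at 0.0111 with averaged probe sets and Igfbp5 at -0.0065 with quantile normalization. Igf2bp3 stood at -0.0687 with averaged probe sets and from -0.22 (without vehicle replicate 2) to 0.27 when 1 array was left out, with -0.08 without the S2101 array. Insr stood at -0.0241 with averaged probe sets, which brings in 2 dim probe sets. The cause of the other changes was not tested. Without a vehicle array the fit of 3 groups has no residual degrees of freedom, so no counts were made there. No paired analysis was possible because the groups share only 1 replicate number, the numbers on the inhibitor descriptions naming 2 compounds.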
